A study of Mus musculus with 16 samples.

Results

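The neuregulin genes Nrg1, Nrg2, Nrg3 and Nrg4 and the receptor genes Egfr, Erbb2, Erbb3 and Erbb4 were followed in the muscle and myenteric plexus of the mouse colon. The 8 genes were taken by symbol from a table of 56748 genes, where they held 9 rows, since a second Nrg1 row of 186 bases had 0 counts in every library and was left out. LMMP (longitudinal muscle with the attached myenteric plexus) came from Ednrb-/- mice, called HSCR mice after Hirschsprung disease, and from Ednrb+/+ WT littermates, all bred from the Ednrb tm1Ywa allele on a hybrid C57BL6/J-129Sv background and 2 to 4 weeks old. Poly-A RNA was sequenced from the proximal and the distal colon of each genotype, with 4 libraries in each of the 4 groups. The endothelin B receptor gene is disrupted in every cell of HSCR mice. The study describes their distal colon as aganglionic (without ganglia), though its stained distal sections held sparse and small ganglia. It marked off the proximal ganglionic colon by gross distension and checked it by staining for the neuronal marker Tuj1. A segment is thus a region of the colon and not a cell type. Whether a proximal and a distal library came from the same mouse is not given in the labels, and P values here measure the spread between libraries.

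Neuregulins are growth factors of the epidermal growth factor (EGF) family, most of them made as membrane-bound precursors that proteases cut free. They bind ERBB3 or ERBB4 through an EGF-like domain, and the bound receptor pairs with ERBB2, which has no known ligand of its own, while EGFR answers to EGF, TGF-alpha, amphiregulin and related ligands and can pair with the same partners. ERBB3 has little kinase activity and signals through its partner to PI3 kinase. NRG1 signaling through ERBB2 and ERBB3 is best known for guiding Schwann cells, ERBB3 is also made by neural crest cells, glia and epithelium, and both NRG1 and NRG3 have been linked to Hirschsprung disease in human genetics.

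The EGF-like domain is what makes a neuregulin a ligand, so the coding sequence of that domain is shown for Nrg1 and Nrg3, whose levels the comparisons below turn on, with Nrg4 beside them for contrast. Each run starts at the codon of the first conserved cysteine and ends at the codon of the last, with the 6 cysteine codons in capitals, read 5′ to 3′ along the coding strand of the GENCODE canonical transcript on GRCm39. All 3 genes lie on the minus strand.
Nrg1: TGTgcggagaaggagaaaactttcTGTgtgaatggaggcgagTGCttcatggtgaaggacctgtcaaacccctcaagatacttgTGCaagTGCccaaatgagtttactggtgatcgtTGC
Nrg3: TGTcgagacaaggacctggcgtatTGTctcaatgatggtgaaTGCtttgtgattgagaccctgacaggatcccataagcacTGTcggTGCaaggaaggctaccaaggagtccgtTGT
Nrg4: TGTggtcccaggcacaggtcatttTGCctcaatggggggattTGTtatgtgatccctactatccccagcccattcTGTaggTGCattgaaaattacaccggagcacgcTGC
The Nrg1 run of 40 codons is joined from exons 2 and 3 and spans chr8:32327726-32339426 with the intron between them. The Nrg3 run of 39 codons is joined from exons 2 and 3 and spans chr14:38390218-38734011. The Nrg4 run of 37 codons is joined from exons 3 and 4 and spans chr9:55149461-55188253. After global alignment with gaps, Nrg1 and Nrg3 shared 53.0% of the bases of the shorter run, Nrg1 and Nrg4 shared 57.7%, and Nrg3 and Nrg4 shared 60.4%.

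Libraries held between 21384372 and 45831881 counted reads, of which mitochondrial genes took 4.32% to 49.8%. The targeted gene Ednrb was checked before the other genes, in CPM (a gene's reads relative to all counted reads of its library, with library totals scaled by TMM over all 16 libraries). Ednrb was at 67.7, 33.9, 64.2 and 53.0 CPM in the WT proximal replicates 1 to 4 and at 7.84, 12.6, 36.2 and 35.8 in the HSCR proximal replicates. It was at 12.2, 16.1, 28.3 and 40.2 CPM in the WT distal replicates and at 97.0, 5.54, 5.82 and 9.56 in the HSCR distal replicates. Its log2 fold change, HSCR minus WT, was -1.26 ± 0.52 (SE) in the proximal colon (adjusted P = 0.747 by edgeR) and 0.27 ± 0.95 in the distal colon (adjusted P = 1.00 by edgeR). The library labelled HSCR distal 1 thus held the highest Ednrb level of all 16, against its label, and the exons these reads fall on were not analysed here. The mean log2 CPM of 12 enteric neuron markers was 5.38 in that library and between -1.01 and 1.36 in the other HSCR distal libraries, whereas it was 1.63 and 1.84 in HSCR proximal 1 and 2 and 6.32 and 6.03 in HSCR proximal 3 and 4. The same score was 1.45 in WT distal 1 and 4.14 to 7.08 in the other WT distal libraries, and 4.88 to 7.70 in the WT proximal libraries. Without that library, the distal difference in mean log2 CPM of Ednrb, HSCR minus WT, was -1.68 and the groups did not overlap (exact permutation P = 0.0571, 2-sided, 4 against 3, the smallest it can give), against -0.72 with overlap when it was kept. That library was singled out by its Ednrb level, so this separation follows from leaving it out and is no check of its label. In view of the Ednrb level of HSCR distal 1, fold changes of the members in comparisons that use it are given with and without it. Group means, r values and overlap counts include it unless stated. Fits without it keep WT distal 1, which had the lowest neuron marker score and Ednrb level of the WT distal libraries. The titles of the 8 distal libraries name the distal colon while their tissue entries name the proximal colon, and the titles were followed.

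Per length, the receptors Erbb2 and Erbb3 were the most abundant of the 8 transcripts. Over the 16 libraries, the FPKM deposited by the authors (counts scaled by gene length and library total) was 6.39 ± 6.21 (SD, n = 16) for Erbb2, 6.12 ± 5.15 for Erbb3 and 2.76 ± 1.32 for Egfr. Nrg2 followed at 0.583 ± 0.464, Nrg3 at 0.377 ± 0.435, Nrg1 at 0.340 ± 0.259, Nrg4 at 0.123 ± 0.169 and Erbb4 at 0.010 ± 0.016. Neighbors in this order differed by less than the larger of their SDs, except for the step from Egfr to Nrg2. The 3 abundant receptors had a count in every library, while Nrg2, Nrg3 and Nrg4 were each at 0 in 2 libraries and Erbb4 was at 0 in 8.

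Nrg1, the neuregulin of axons that instructs Schwann cells, was highest in WT proximal colon and lowest in HSCR distal colon. It was at 2.18, 10.6, 11.5 and 15.5 CPM in the WT proximal replicates 1 to 4 and at 3.07, 5.51, 6.10 and 5.30 in the HSCR proximal replicates. It was at 3.57, 4.58, 4.57 and 4.34 CPM in the WT distal replicates and at 4.97, 1.60, 1.16 and 0.576 in the HSCR distal replicates. All groups overlapped when every library was kept, and WT distal was the tightest, at 4.26 ± 0.475 CPM (SD, n = 4). The means of the others were 9.95 ± 5.58 CPM in WT proximal, 4.99 ± 1.33 in HSCR proximal and 2.08 ± 1.98 in HSCR distal. Without the library labelled HSCR distal 1, the remaining 3 HSCR distal libraries lay below all 4 WT distal libraries.

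Nrg3, a neuregulin made mainly in the nervous system that binds ERBB4, was nearly absent from HSCR distal colon. Its counts there were 10, 0, 3 and 2 reads in replicates 1 to 4, or 0.286, 0, 0.081 and 0.046 CPM. Other groups held libraries of both kinds. Nrg3 was at 0.753, 6.70, 9.15 and 5.44 CPM in the WT proximal replicates and at 0.200, 0.402, 4.11 and 3.58 in the HSCR proximal replicates. It was at 0.734, 0, 4.05 and 6.36 CPM in the WT distal replicates, so the WT distal and HSCR distal groups overlapped through the WT library with no Nrg3 read. A count of 0 in that library, WT distal 2, allows up to 0.0864 CPM, and in HSCR distal 2 up to 0.112 CPM, from counting error only. Group means were 5.51 ± 3.53 CPM (SD, n = 4) in WT proximal, 2.07 ± 2.06 in HSCR proximal, 2.79 ± 2.96 in WT distal and 0.103 ± 0.126 in HSCR distal.

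Nrg2, a neuregulin of brain and nerve that binds ERBB3 and ERBB4, showed no order among the groups. It was at 0, 5.45, 1.99 and 2.68 CPM in the WT proximal replicates and at 4.79, 1.24, 1.10 and 0.322 in the HSCR proximal replicates. It was at 0, 1.70, 1.60 and 3.66 CPM in the WT distal replicates and at 2.2, 2.34, 1.67 and 0.83 in the HSCR distal replicates. Both libraries without an Nrg2 read were WT replicates 1, and all 4 groups overlapped.

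Nrg4, a secreted ERBB4 ligand known from fat tissue, was the least abundant neuregulin over all 16 libraries, though Nrg3 gave fewer reads in HSCR distal colon. Nrg4 was at 0.527, 4.20, 0.545 and 1.34 CPM in the WT proximal replicates and at 0.100, 0, 0.277 and 0.493 in the WT distal replicates. The WT segments thus did not overlap on this TMM-scaled measure. In HSCR mice Nrg4 was at 0.125, 1.61, 0.441 and 0.107 CPM in the proximal replicates and at 0.600, 0.967, 0 and 0.783 in the distal replicates, and these overlapped. The counts behind these values were 370 reads over all 16 libraries, with 175 in WT proximal, 38 in WT distal, 76 in HSCR proximal and 81 in HSCR distal libraries.

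**Figure D1:**
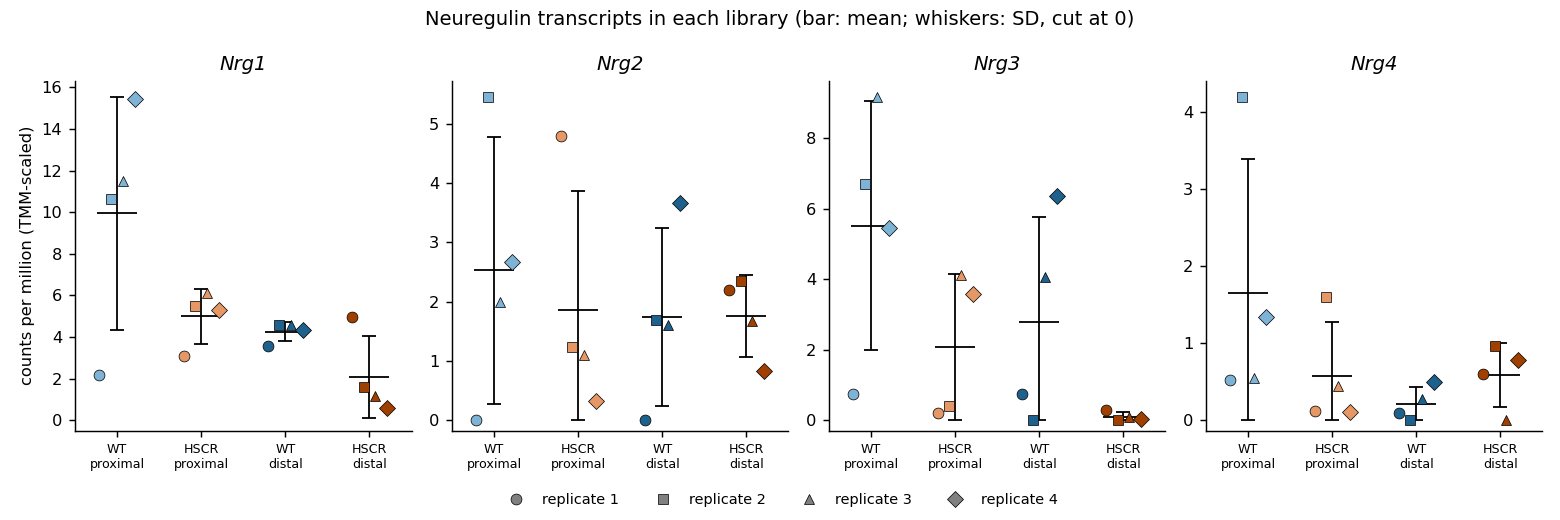
CPM of the 4 neuregulins in each library (y axis, TMM-scaled) for the 4 groups (x axis), with one marker shape per replicate number, a bar at the group mean and whiskers of 1 SD cut at 0. Nrg3 stayed at or below 0.286 CPM in the 4 HSCR distal libraries, and Nrg1 was highest in WT proximal 4 at 15.5 CPM.

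Erbb3, the receptor that binds neuregulins and recruits PI3 kinase, spread more widely among HSCR than among WT proximal libraries. It was at 27.0, 27.4, 34.4 and 19.2 CPM in the WT proximal replicates and at 20.8, 104, 75.3 and 9.30 in the HSCR proximal replicates. It was at 8.44, 17.1, 41.0 and 57.7 CPM in the WT distal replicates and at 30.0, 15.4, 106 and 9.42 in the HSCR distal replicates. HSCR proximal libraries thus lay both above and below the WT proximal libraries, HSCR distal 3 lay above all WT distal libraries, and the SD within HSCR proximal colon was 44.7 CPM around a mean of 52.2, against 6.22 around 27.0 in WT proximal colon (n = 4 each).

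Erbb2, the shared partner of the other receptors, was higher on average in HSCR than in WT mice in both segments. It was at 19.7, 50.04, 18.2 and 14.6 CPM in the WT proximal replicates and at 29.4, 139, 46.3 and 25.2 in the HSCR proximal replicates. It was at 13.1, 7.17, 21.2 and 19.6 CPM in the WT distal replicates and at 25.2, 19.2, 71.4 and 22.2 in the HSCR distal replicates. In each segment 1 library made the groups overlap. WT proximal 2 stood above 3 of the 4 HSCR proximal libraries, and HSCR distal 2 stood below 2 of the 4 WT distal libraries. Group means were 25.7 ± 16.4 CPM (SD, n = 4) in WT proximal, 60.0 ± 53.6 in HSCR proximal, 15.3 ± 6.44 in WT distal and 34.5 ± 24.7 in HSCR distal.

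Egfr, the receptor for EGF and related ligands, was even among the WT proximal libraries, at 24.4 ± 2.92 CPM (SD, n = 4). It was at 22.7, 27.0, 26.6 and 21.1 CPM in the WT proximal replicates and at 33.7, 14.2, 53.7 and 47.9 in the HSCR proximal replicates. It was at 17.6, 13.6, 35.4 and 45.9 CPM in the WT distal replicates and at 28.8, 15.7, 39.8 and 69.8 in the HSCR distal replicates. HSCR proximal 1, 3 and 4 lay above all WT proximal libraries and HSCR proximal 2 lay below them, while the distal groups overlapped throughout.

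Erbb4, the other receptor that neuregulins bind, gave 72 reads in all 16 libraries and was too low to be tested. Its counts were 1, 0, 20 and 4 in the WT proximal replicates, 2, 0, 0 and 3 in the HSCR proximal replicates, and 16, 0, 2 and 24 in the WT distal replicates. None of the 4 HSCR distal libraries held an Erbb4 read, which allows up to 0.0211 CPM over the group from counting error only. WT distal colon held 0.266 CPM over its pooled reads, at least 12.6-fold higher than that limit, but 2 of its libraries gave 40 of the 42 reads. The exact permutation test of the distal difference in log2 CPM gave P = 0.143 (2-sided, 4 against 4).

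**Figure D2:**
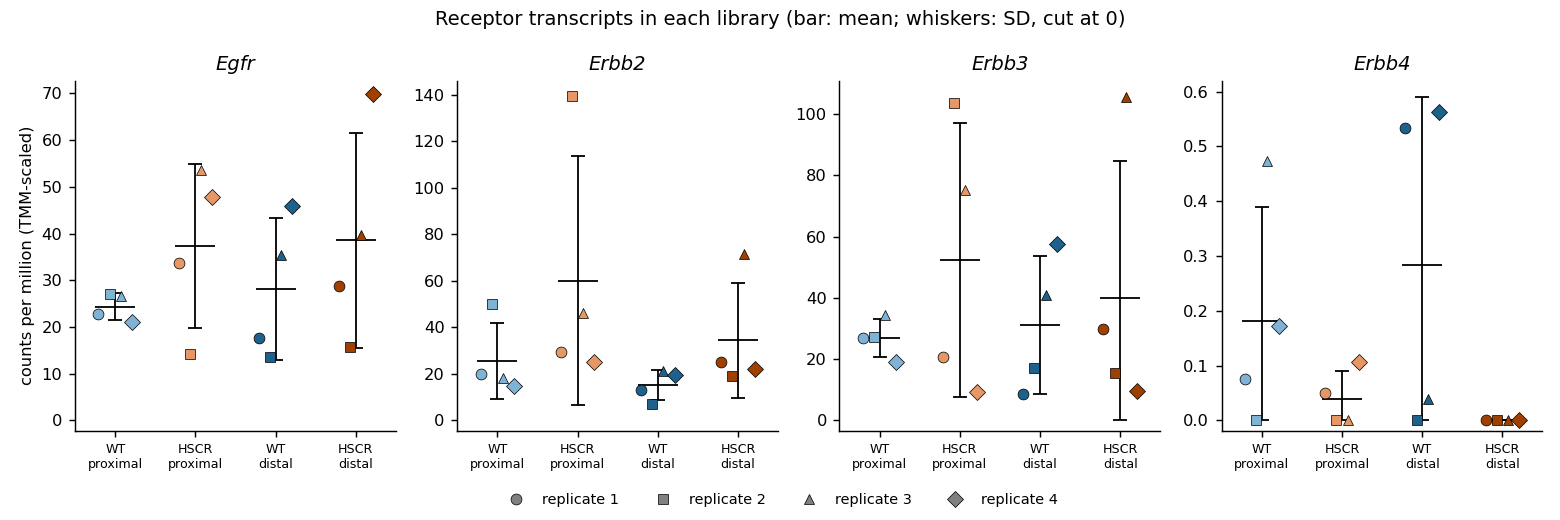
CPM of the 4 receptor genes in each library (y axis, TMM-scaled) for the 4 groups (x axis), drawn as for the neuregulins. Erbb2 and Erbb3 reached 139 and 104 CPM in HSCR proximal 2 and 71.4 and 106 in HSCR distal 3, while Erbb4 stayed at or below 0.563 CPM.

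The genotypes were compared in the proximal colon to ask whether ganglionic HSCR colon differs from WT. The fitted fold changes of all 4 neuregulins were below 0 and those of the 3 tested receptors above 0, but no member passed the test. For Nrg2 the mean log2 CPM differed in the opposite direction, by 0.60. The log2 fold change from edgeR's quasi-likelihood fit was -1.03 ± 0.58 (SE) for Nrg1, -0.47 ± 1.24 for Nrg2, -1.43 ± 1.06 for Nrg3 and -1.58 ± 1.11 for Nrg4. It was 0.60 ± 0.39 for Egfr, 1.19 ± 0.62 for Erbb2 and 0.91 ± 0.65 for Erbb3. With all libraries in this fit no member had an unadjusted P under 0.05, and the adjusted P of edgeR was 0.753 for Erbb2 and higher for the others. Among the tested receptors, Erbb2 passed that limit in 2 of 8 fits that left out 1 library and in 3 of 10 other alternatives. Egfr passed it in 1 of the 8 and 2 of the 10, and Erbb3 in 1 of the 8 and 0 of the 10. Of all genes, 5286 of 16664 passed it with the likelihood ratio test and 4 RUVr factors, and 2947 with limma-voom. In the fits that left out 1 library, between 689 of 17384 and 1702 of 17345 genes did. With all libraries in edgeR's fit, 0 of 16664 genes tested (0.0%) passed an adjusted P of 0.05 with a log2 fold change beyond 1, and 1103 (6.62%) had an unadjusted P under 0.05. DESeq2 called 181 genes. The median log2 fold change was -1.23 over the neuregulins and 0.91 over the tested receptors, beside 0.04 over all genes tested, of which 46.8% were lower. The median and direction of so few genes describe these libraries and do not set the members apart. Of the 8 members none had groups that did not overlap, beside 4.86% of all genes tested (2.03% higher and 2.83% lower in HSCR), and the exact permutation tests gave P from 0.171 to 0.914 (2-sided, 4 against 4). Erbb2 dropped to 0.38 ± 0.45 and Erbb3 from 0.91 to 0.37 ± 0.61 without HSCR proximal 2. Without WT proximal 2, Erbb2 was at 1.72 ± 0.62 and Nrg4 at -0.57 ± 1.04, and Nrg4 was at -2.85 ± 1.17 without HSCR proximal 2. Egfr was at 0.88 ± 0.24 without HSCR proximal 2, with an adjusted P of 0.505 from edgeR, and at 0.39 ± 0.42 without HSCR proximal 3.

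In the distal colon, which the study describes as aganglionic in HSCR mice, the comparison asks which transcripts go with that segment. With all libraries in edgeR's fit, Nrg3 was the only member with an unadjusted P under 0.05, with a log2 fold change of -4.74 ± 1.74 (SE) and an adjusted P of 1.00 from edgeR's quasi-likelihood test. No gene passed the call here either, with 0 of 17059 (0.0%) called by edgeR, 22 by DESeq2, and 450 (2.64%) at an unadjusted P under 0.05, of which 300 (1.76%) were lower. Nrg3 kept that limit in 5 of 8 fits that left out 1 library, including the fit without the library labelled HSCR distal 1 (-5.94 ± 2.07), and lost it without HSCR distal 3, HSCR distal 4 or WT distal 4 (-3.96 ± 1.87). Erbb2 passed that limit in 3 of the 8 fits that left out 1 library and in 5 of 10 other alternatives, Nrg1 in 1 of the 8 (without HSCR distal 1) and in 2 of 10, and Erbb4 in the fit without a filter. Of all genes, 3440 of 17059 passed it with the likelihood ratio test and 4 RUVr factors, 1355 with limma-voom and 1114 of 30326 without a filter. In the fits that left out 1 library, between 341 of 17589 and 928 of 17715 genes did, the latter without HSCR distal 1. The exact permutation test of Nrg3 log2 CPM gave P = 0.200 (2-sided, 4 against 4), where the smallest P it can give is 0.0286. Nrg1 had a log2 fold change of -1.05 ± 0.69 and of -1.97 ± 0.58 without HSCR distal 1 (adjusted P = 0.813 by edgeR). Without that library the exact permutation test for Nrg1 gave P = 0.0571 (2-sided, 4 against 3), the smallest it can give, and P = 0.143 with all libraries. Erbb2 had a log2 fold change of 1.13 ± 0.52, with an exact permutation P of 0.0857, which dropped to 0.52 ± 0.43 without HSCR distal 3. Erbb3 was at -0.78 ± 0.70 without that library. The other members had log2 fold changes of -0.01 ± 1.15 for Nrg2, 1.39 ± 1.45 for Nrg4, 0.42 ± 0.53 for Egfr and 0.31 ± 0.82 for Erbb3. Without HSCR distal 1 these were -0.14 ± 1.33 for Nrg2, 1.37 ± 1.69 for Nrg4, 0.52 ± 0.60 for Egfr and 0.41 ± 0.92 for Erbb3, and Erbb2 was at 1.24 ± 0.57. The median was -0.53 over the neuregulins and 0.42 over the tested receptors, beside 0.04 over all genes tested. None of the 8 members had distal groups that did not overlap, beside 1.82% of all genes tested (0.78% higher and 1.04% lower).

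The genotype effects of the segments were set against each other in 1 model over all 16 libraries. The distal minus proximal difference of log2 fold changes was -3.29 ± 1.95 (SE) for Nrg3 and 2.94 ± 1.93 for Nrg4, and the other 5 tested members lay between -0.59 and 0.46, all with an adjusted P of 1.00 by edgeR and none with an unadjusted P under 0.05. edgeR called 0 of 18619 genes (0.0%) and DESeq2 6, and 269 genes (1.44%) had an unadjusted P under 0.05. Without HSCR distal 1 the difference was -4.51 ± 2.12 for Nrg3, 2.88 ± 2.06 for Nrg4 and -0.98 ± 0.78 for Nrg1, and the other 4 lay between -0.52 and 0.28, again with an adjusted P of 1.00 by edgeR. A difference of the Nrg3 effect between the segments was thus not shown.

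Replicates 1 and 2 of every group carry library names of one style. Names of replicates 3 and 4 follow 2 further styles spread unevenly over the groups, one of them found only in proximal libraries. The labels do not call these batches, so each difference was also taken within replicates 1 and 2 and within replicates 3 and 4 (2 libraries against 2, no test). HSCR minus WT in mean log2 CPM was 1.02 in the former and 1.06 in the latter for Erbb2 in the proximal colon, and 1.18 and 0.96 in the distal colon. For Nrg1 it was -0.23 and -1.23 in the proximal colon and -0.52 and -2.42 in the distal colon. For Nrg3 it was -2.93 and -0.88 in the proximal colon and -0.66 and -6.07 in the distal colon. Without HSCR distal 1, the distal difference within replicates 1 and 2 rested on 1 HSCR library. There it was 0.98 for Erbb2, -1.33 for Nrg1 and -2.85 for Nrg3. Nrg2 turned around, at 3.13 and -1.92 in the proximal colon and at 3.86 and -1.03 in the distal colon. In the distal colon Nrg4 (4.26 and -1.84) and Erbb3 (0.84 and -0.62) also turned around. Egfr did so in the proximal colon (-0.18 and 1.10). Nrg4, Erbb3 and Egfr kept their sign in the other segment.

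Distal and proximal colon were compared within each genotype to ask how the segments differ. In WT mice Nrg4 had a log2 fold change, distal minus proximal, of -2.90 ± 1.43 (SE) with an adjusted P of 0.956 by edgeR, and -1.86 ± 1.44 without WT proximal 2. Its segments did not overlap, as for 321 of 18619 genes tested (1.72%) in that direction, 445 (2.39%) in the other and 4.11% in all. The nearest libraries were WT proximal 1 at 0.527 CPM (7 reads) and WT distal 4 at 0.493 CPM (21 reads). Their totals were 21384372 and 37566705 counted reads, and their TMM factors were 0.621 and 1.13. The order of these libraries, and with it the separation, thus depends on the TMM scaling. The exact permutation test for Nrg4 gave P = 0.0286, the smallest it can give, and this was the only one of 32 such tests (8 members in 4 comparisons) under 0.05. Nrg1 had a log2 fold change of -1.22 ± 0.64 between the WT segments and an exact permutation P of 0.143. The remaining log2 fold changes in WT were -0.54 ± 1.27 for Nrg2, -0.98 ± 1.34 for Nrg3, 0.21 ± 0.48 for Egfr, -0.75 ± 0.60 for Erbb2 and 0.20 ± 0.79 for Erbb3. The fitted changes of all 4 neuregulins were below 0, with a median of -1.10, beside 0.01 over all genes tested, of which 49.3% were lower. edgeR called 0 of 18619 genes (0.0%) in this comparison and DESeq2 18, and 900 (4.83%; 3.03% higher and 1.8% lower) had an unadjusted P under 0.05, none of them a member.

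In HSCR mice Nrg3 had a log2 fold change, distal minus proximal, of -4.27 ± 1.55 (SE), an adjusted P of 1.00 by edgeR and an exact permutation P of 0.0571. With all libraries in edgeR's fit it was the only member with an unadjusted P under 0.05. It kept that limit without any 1 of these 8 libraries, where Nrg1 and Erbb2 passed it in 1 of the 8 fits each, and without both libraries labelled HSCR replicate 1 (-5.84 ± 1.84). Between 250 of 19330 and 1328 of 19328 genes passed it in the fits that left out 1 library, and 1425 of 19129 without both. Nrg1 had a log2 fold change of -1.26 ± 0.64, with an exact permutation P of 0.0571, and of -2.17 ± 0.62 without the library labelled HSCR distal 1 (adjusted P = 0.685 by edgeR). The other members lay between -0.80 ± 0.60 for Erbb2 and 0.05 ± 1.34 for Nrg4, and without HSCR distal 1 between -0.68 ± 0.66 for Erbb2 and 0.14 ± 0.53 for Egfr. edgeR and DESeq2 called 0 of 18619 genes (0.0%), and 476 (2.56%) had an unadjusted P under 0.05, of which 223 (1.2%) were lower. No member had segments that did not overlap in HSCR mice, beside 1.39% of all genes tested (0.704% higher and 0.682% lower). The segment comparisons share libraries with the genotype comparisons, so the low Nrg3 of HSCR distal colon enters both.

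**Figure D3:**
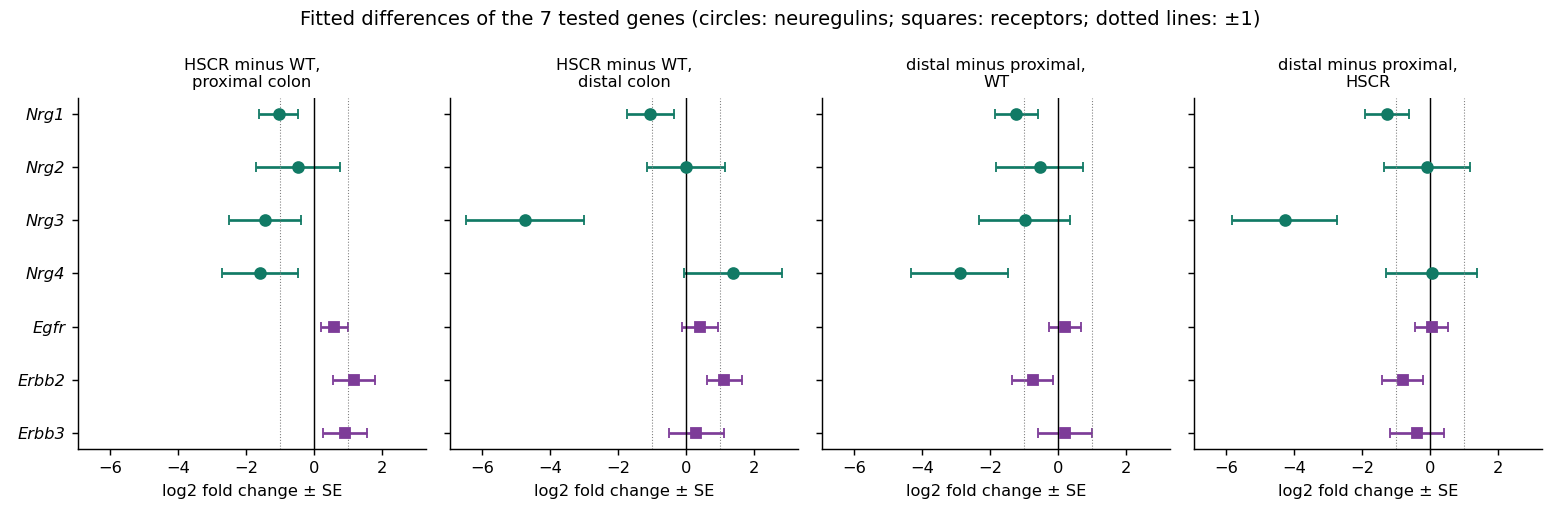
Log2 fold change (x axis) of the 7 tested members (y axis) in the genotype comparison of each segment and the segment comparison of each genotype, from edgeR's fit, with whiskers of 1 SE. Nrg3 lies at -4.74 in the distal genotype comparison and at -4.27 in the HSCR segment comparison, while the receptors lie between -0.80 and 1.19 in all 4.

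Neuron markers varied with Nrg1 and Nrg3 across libraries. In bulk tissue, fewer cells of a type and less RNA per cell cannot be told apart. All 12 neuron markers had a Pearson r above 0.5 with Nrg1 over the 16 libraries (0.57 to 0.86, median 0.80), as had 7.39% of all genes tested. The same 12 had r between 0.53 and 0.85 with Nrg3 (median 0.75), where 10.02% of all genes were above 0.5. Of 11 enteric glia markers, 8 were above 0.5 with Nrg1 and 5 with Nrg3. These r values are descriptions, since the libraries share their groups and may share mice. In HSCR distal colon no more than 1 neuron marker of 12 was at 0 counts in any library, and the summed CPM of the markers ran from 21.4 to 1344, against 98.6 to 2421 in WT distal colon. The HSCR distal range includes HSCR distal 1, whose mean log2 CPM of the markers, 5.38, was the highest of that group. The median of that group was 1.00. In the proximal colon the sum ran from 84.1 to 2892 in HSCR and from 639 to 3597 in WT libraries. The part of these cells in the Nrg1 and Nrg3 values was not tested.

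Erbb2 varied with epithelium markers instead. Of 13 intestinal epithelium markers, 8 had r above 0.5 with Erbb2 (0.28 to 0.63 over all 13, median 0.52), where 8.89% of all genes did, and none with Erbb3 (0.24 to 0.48). The mean log2 CPM of the epithelium markers was highest in HSCR proximal 2 at 9.76, followed by HSCR distal 3 at 7.50, HSCR proximal 3 at 7.24 and WT proximal 1 at 7.08. The first 3 of these libraries had the highest Erbb3 levels of all 16 (104, 106 and 75.3 CPM), whereas WT proximal 1 had 27.0 CPM. Summed over the 13 markers, WT proximal libraries ran from 46.7 to 3921 CPM with up to 6 markers at 0, HSCR proximal from 252 to 17854, WT distal from 154 to 2533 and HSCR distal from 144 to 5720, with no marker at 0 in those 3 groups. HSCR proximal 2 also had the lowest smooth muscle score, at 7.20 against 9.87 to 11.53 elsewhere. The part of epithelium in the Erbb2 and Erbb3 values was not tested. Egfr went with neither list (medians of r 0.04 for neurons and -0.13 for epithelium) and had median r of 0.69 with 6 endothelium, 0.66 with 5 mesothelium and 0.53 with 9 smooth muscle markers, where 17.5% of all genes were above 0.5.

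**Figure D4:**
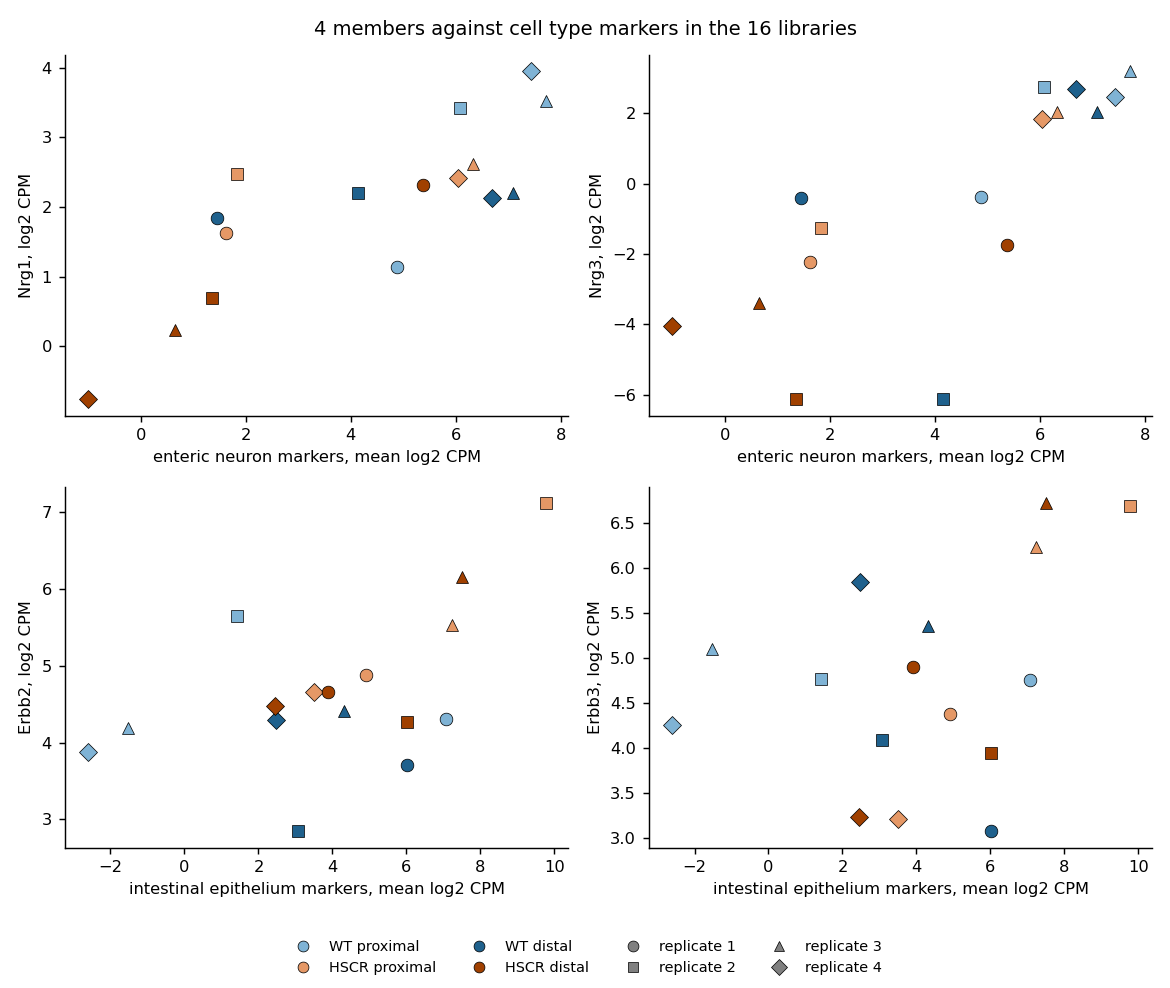
Log2 CPM of Nrg1 and Nrg3 (y axes) against the mean log2 CPM of 12 enteric neuron markers (x axes), and of Erbb2 and Erbb3 against that of 13 intestinal epithelium markers, for the 16 libraries, with color for group and marker shape for replicate. HSCR distal 4 is lowest in the neuron score (-1.01) and in Nrg1, and HSCR proximal 2 is highest in the epithelium score (9.76) and in Erbb2.

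The other EGF family ligands, which bind EGFR or ERBB4, were higher on average in HSCR proximal colon for all 6 tested, and 1 had an unadjusted P under 0.05. Of all genes tested there, 46.8% were lower, and 2.48% were higher at that limit. Areg, which encodes amphiregulin, was at 1.36, 0, 0.166 and 0.475 CPM in the WT proximal replicates and at 1.20, 12.6, 6.56 and 3.65 in the HSCR proximal replicates. Its log2 fold change was 3.61 ± 1.27 (SE; adjusted P = 0.747 by edgeR), and only WT proximal 1 and HSCR proximal 1 overlapped. The other 5 log2 fold changes were 0.26 ± 0.62 for Btc (betacellulin), 0.53 ± 0.53 for Hbegf (heparin-binding EGF), 0.64 ± 0.47 for Ereg (epiregulin), 0.91 ± 0.87 for Tgfa (TGF-alpha) and 1.49 ± 1.24 for Egf. Epgn (epigen) was too low to be tested there. In the distal colon 3 of the 7 were higher and 4 lower, between -2.36 ± 1.72 for Epgn and 1.42 ± 1.51 for Areg, and none had a P under 0.05. The list median was 0.77 in proximal colon and -0.01 in distal colon, or 0.41 without HSCR distal 1. All 13 epithelium markers were also higher in HSCR colon, with a median of 2.76 in the proximal colon (3 at an unadjusted P under 0.05) and of 1.07 in the distal colon (1 at that limit), and their part in these ligand values and in Erbb2 was not tested.

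Among the proteases and partners that shed ligands (6 of 7 symbols found), no gene had an unadjusted P under 0.05 in either genotype comparison. Of 16 genes that restrain the receptors, 1 did in the proximal colon, where 2.48% of all genes were higher and 4.13% lower at that limit, and 0 did in the distal colon. Without HSCR distal 1, Dusp6 and Spry4 of this list, chosen here after their values were seen, were lower at that limit in the distal colon. In that fit 732 of 17715 genes tested (4.13%) were lower at it. The gene in the proximal colon was Lrig3, a transmembrane relative of the ERBB restraint factor LRIG1, at 8.38 ± 2.76 CPM (SD, n = 4) in WT and 29.3 ± 11.5 in HSCR proximal colon. Its ranges of 5.05 to 11.7 and 17.8 to 45.3 did not overlap, as for 338 of the 16664 genes tested (2.03%) in that direction, and its log2 fold change was 1.78 ± 0.39 (SE; adjusted P = 0.527 by edgeR). Of 30 adaptor and effector genes, 2 were lower at an unadjusted P under 0.05 in the proximal colon. They were Hsp90aa1, a chaperone of ERBB2 and other kinases, with a log2 fold change of -0.79 ± 0.29, and Stat5b, a transcription factor downstream of ERBB4 and cytokine receptors, with -0.59 ± 0.25, both with an adjusted P of 0.747 by edgeR. The list medians were 0.37 for shedding, -0.03 for restraint and -0.01 for effectors in the proximal colon, and 0.09, -0.14 and -0.14 in the distal colon.

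A list of 8 Schwann cell genes was also read, and whether neuregulin signaling drives them in this tissue was not tested. Of these, 7 were tested in the proximal colon, where 3 were higher and 4 lower with a median of -0.15, and 2 were lower at an unadjusted P under 0.05. In the distal colon 7 of the 8 were higher, with a median of 0.19, and none had an unadjusted P under 0.05, while Sox10 was lower at that limit without HSCR distal 1. Sox10, the glial lineage factor, was at 97.4 ± 37.5 CPM (SD, n = 4) in WT and 27.5 ± 17.0 in HSCR proximal colon, with a log2 fold change of -1.83 ± 0.49 (SE; adjusted P = 0.651 by edgeR). Mbp, a myelin protein, had a log2 fold change of -1.46 ± 0.55 (adjusted P = 0.747 by edgeR). The glia list, which also holds Sox10, was lower for all 11 markers in both segments, with 8 of them at an unadjusted P under 0.05 in proximal colon and 2 in distal colon, where 4.13% and 1.76% of all genes were lower at that limit, with medians of -1.69 and -1.67. The lowest P values in the proximal colon were those of S100b, a calcium-binding protein of glia, at -2.78 ± 0.67, and Entpd2, the glial ectonucleotidase, at -1.69 ± 0.35, with adjusted P of 0.607 and 0.525 by edgeR. In the distal colon S100b was at -2.12 ± 0.91 and Cdh19, a cadherin of glia and Schwann cells, at -1.79 ± 0.76. Erbb3, which glia also make, had log2 fold changes of 0.91 ± 0.65 (SE) in proximal and 0.31 ± 0.82 in distal colon. Neither had an unadjusted P under 0.05, and the distal value ran from -0.78 to 0.79 when 1 library was left out. A difference between Erbb3 and the glia markers was not tested. The r of Erbb3 with the 11 glia markers lay between -0.23 and 0.26. Of the 12 neuron markers, 11 were lower in the proximal colon, 5 of them at an unadjusted P under 0.05, and all 11 tested were lower in the distal colon, none of them at an unadjusted P under 0.05, with medians of -2.01 and -1.80. Without HSCR distal 1, the distal median was -4.78 for 12 neuron markers, all of them lower at that limit, and -1.97 for the 11 glia markers, 6 of them lower at it, as were 4.13% of all genes tested in that fit. HSCR distal 1 had stood out by its score on these same 12 neuron markers. Their shift in that fit thus follows from leaving it out and is no separate result.

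**Figure D5:**
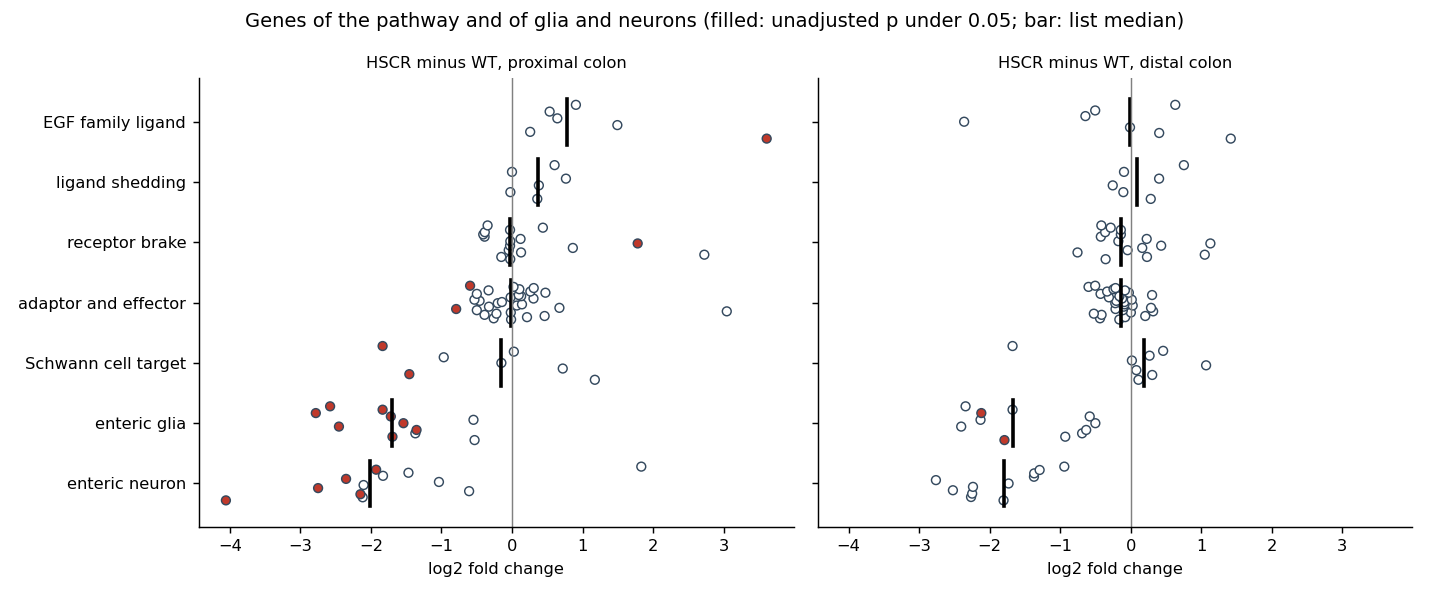
Log2 fold change (x axis) of each tested gene of 7 lists (y axis) for HSCR minus WT in proximal and distal colon, with filled points at an unadjusted P under 0.05 and a bar at the list median. The medians of glia and neuron markers lie between -2.01 and -1.67 in both segments, and those of the other 5 lists between -0.15 and 0.77.

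For each tested member, up to 5 genes with the highest Pearson r in log2 CPM over the 16 libraries were listed from 18619 genes, as a description. Genes like Nrg3 included Hs3st5 (r = 0.93), a heparan sulfate sulfotransferase, Nap1l2 (0.92), a neuronal nucleosome assembly protein, Sstr1 (0.91), a somatostatin receptor, and Cbarp (0.90), a regulator of calcium channels. Nrg1 was most like Usp5 (0.89), a deubiquitinase, 5330434G04Rik (0.88), Arhgdig (0.88), Neurl1a (0.88), a ubiquitin ligase, and Scn2b (0.88), a sodium channel subunit. Nrg1 and Nrg3 had r = 0.69 with each other, the highest value among pairs of members. Nrg2 was most like Catsperz (0.94), Gm9828 (0.89), 1700029I15Rik (0.87), Caprin2 (0.84) and Gm9885 (0.84), and Nrg4 most like 1700020L24Rik (0.84), Prtn3 (0.79), Camk1g (0.79), Gm6257 (0.77) and Adra2a (0.77), all resting on few reads of the member.

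Among the receptors, Erbb2 and Erbb3 had r = 0.67 with each other and at most 0.17 with Egfr. Erbb2 was most like Cyp4f16 (0.97), a cytochrome P450, Cant1 (0.97), a nucleotidase, Cd82 (0.95), a tetraspanin, Galnt4 (0.94), a glycosyltransferase, and Entpd6 (0.93), a nucleoside diphosphatase. Erbb3 was most like Slc44a1 (0.90), a choline transporter, St6gal1 (0.85), a sialyltransferase, Itpr3 (0.84), a calcium release channel, Slc9a2 (0.83), a sodium-proton exchanger, and Gpd2 (0.82), a mitochondrial dehydrogenase. Egfr was most like Mxra8 (0.95), a matrix remodeling protein, Esyt2 (0.94), a membrane tether, Atp2a2 (0.93), the calcium pump of muscle, Tmem106b (0.93) and Tmem18 (0.92). None of these genes is one of the other members.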

How the data were processed

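Poly-A RNA of 16 LMMP libraries, 4 per genotype and segment, was sequenced. The authors aligned the reads to mm39 with HISAT2 2.2.1 and counted them per gene with featureCounts 2.0.6 against a GENCODE gene model. The deposited counts are whole reads without normalization. The FPKM values deposited by the authors are counts scaled by gene length and library total. The group means of normalized signal, the log2 fold changes and the p-values deposited by the authors come from their own comparisons and were not used. Counting by strand is not given in the sources used here, so reads of overlapping antisense genes cannot be told apart.

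Libraries were grouped by their titles. Genes were filtered with filterByExpr, scaled by TMM and tested with edgeR's quasi-likelihood test (Benjamini-Hochberg adjustment over all genes tested), on 8 libraries for each genotype comparison and 16 for the segment and interaction contrasts. The SE is the log2 fold change over the root of the F statistic. A call needs an adjusted P under 0.05 and a log2 fold change beyond 1. CPM was scaled by TMM over 16 libraries, and log2 CPM used a prior count of 0.5. Single genes were compared with exact 2-sided permutation tests, whose smallest P is 0.0286. A count of 0 allows 3 counts. edgeR's common biological coefficient of variation was 0.715 for proximal and 0.737 for distal libraries. No 2 libraries were identical (0 pairs). The tests were tested on simulated counts.

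The members and the gene lists were chosen with earlier results of these data known, so they are no independent support. The text names the 8 members, Ednrb, pathway genes at an unadjusted P under 0.05 in a genotype comparison with the other EGF ligands, list markers, and the 5 genes most like each member. An item that this rule names is not reported here. Alternatives were DESeq2, the likelihood ratio test with 4 RUVr factors as in the Methods of the study, limma-voom with quality weights, RLE normalization, no filter or CPM above 1 in 4 libraries, removal of the 37 mitochondrial genes, the replicate number as a term, replicates 1 and 2 against 3 and 4 as a term, other sets of libraries, and leaving out each library. A pairing of the libraries over all replicate numbers was not shown. Sequences were read from GENCODE transcripts, and all 8 genes overlapped their GENCODE positions on the reference. Statistics used edgeR 4.0.16, DESeq2 1.42.0 and limma 3.58.1 under R 4.3.3. Tables and figures used scipy 1.17.1, numpy 2.4.6, pandas 2.3.3 and matplotlib 3.10.9 under Python 3.11.15.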

Additional observations from a re-analysis of the deposited data

Results flagged for a closer look

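Single libraries stood apart from the other 3 of their group in 2 of 32 combinations of member and group, by Dixon's test at the 95% level, and chance alone flags about 1 in 20 groups. Erbb2 was at 50.04 CPM in WT proximal 2, with the next library of that group at 19.7 CPM. Erbb2 was at 71.4 CPM in HSCR distal 3, with the next library of that group at 25.2 CPM. Without WT proximal 2 the proximal log2 fold change of Erbb2 was 1.72 ± 0.62 (SE; adjusted P = 0.782 by edgeR), and without HSCR distal 3 the distal one was 0.52 ± 0.43 (adjusted P = 1.00 by edgeR).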

How the results depend on the processing

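The number of genes called depended on the test. In the proximal genotype comparison it was 181 with DESeq2, 2655 with the likelihood ratio test and 4 RUVr factors, 4 with limma-voom and 4 with a term for replicates 1 and 2 against 3 and 4 (the replicate pair). It was 22 with DESeq2 and 1120 with RUVr in the distal genotype comparison, and 6 and 324 for the interaction. In the WT segment comparison it was 18 with DESeq2, 921 with RUVr and 3 with the 8 WT libraries alone, and in the HSCR one 211 with RUVr. RUVr also called 6 values of members: Nrg3 (-1.82) and Erbb2 (1.05) in the proximal colon, Nrg1 (-1.50), Nrg3 (-5.54) and Erbb2 (1.01) in the distal colon, and Nrg3 (-4.73) between HSCR segments. In the same fits RUVr called 2655 of 16664 genes tested in the proximal colon, 1120 of 17059 in the distal colon and 211 of 18619 between HSCR segments. The cause was not tested. The other alternatives called 0 genes in each comparison, including the replicate block.

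Of the members' log2 fold changes, 28 turned in sign under alternatives other than leaving out 1 library, while 317 kept sign and call. Nrg2 turned to 0.97 with RUVr in the proximal colon. In the distal colon Nrg2, at -0.0062, became 0.0066 with DESeq2, 0.0061 with RLE, 0.013 with the CPM filter and 0.015 with all 16 libraries, and 1.36 with RUVr, 0.12 with limma-voom and 0.15 with replicate pair. Distal Nrg4 was -0.94 with limma-voom. The interaction became 0.027 with replicate pair for Egfr, and 0.0069 with RUVr and 0.11 with limma-voom for Erbb2. Between WT segments, Egfr was -0.017 and Erbb3 -0.0073 with replicate pair, and Erbb2 was 0.0092 with limma-voom. Between HSCR segments, limma-voom gave 0.33 for Nrg2, -1.35 for Nrg4, -0.17 for Egfr, 0.12 for Erbb2 and 0.33 for Erbb3. There RUVr gave 0.059 for Nrg2 and -0.051 for Egfr, removing mitochondrial genes gave -0.0013 for Egfr, and leaving out both HSCR replicates 1 gave 0.86 for Nrg2 and -0.29 for Nrg4. The cause was not tested.

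With the replicate block, Nrg2 in the distal colon became 0.55, the Egfr interaction 0.069 and Egfr between WT segments -0.066. A pairing over all 4 numbers was not shown. In none of the 4 pairs of groups were all same-numbered correlations over 0.1, and not every library matched its own number best. Over the 4 numbers the correlation ran from -0.12 to 0.25 between WT and HSCR in the proximal and from -0.21 to 0.42 in the distal colon, and from 0.096 to 0.42 between WT and from 0.00014 to 0.36 between HSCR segments. Names of replicates 1, and those of replicates 2, end in a shared number in all 4 groups, which the labels do not explain. Whether these libraries share mice or litters cannot be told from this check, which asks for all 4 numbers at once.

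Leaving out 1 library turned the sign in 41 cases and kept it in 295. The ranges over these fits were -1.54 to 0.20 for Nrg2 in the proximal colon, and -0.44 to 0.65 for Nrg2, -0.044 to 0.75 for Egfr and -0.78 to 0.79 for Erbb3 in the distal colon. For the interaction they were -0.98 to 0.32 for Nrg1, -0.24 to 1.52 for Nrg2, -0.63 to 0.11 for Egfr and -0.74 to 0.78 for Erbb2. Between WT segments they were -1.16 to 0.16 for Nrg2, -0.091 to 0.44 for Egfr and -0.24 to 0.52 for Erbb3. Between HSCR segments they were -0.44 to 0.98 for Nrg2, -0.30 to 1.36 for Nrg4, -0.41 to 0.30 for Egfr, -1.44 to 0.036 for Erbb2 and -1.53 to 0.19 for Erbb3.

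Genes at an unadjusted P under 0.05 numbered 689 to 5286 over the alternatives in the proximal and 341 to 3440 in the distal genotype comparison, 155 to 2009 for the interaction, and 595 to 3971 and 250 to 2493 between WT and HSCR segments. Nrg3 was not tested in the distal colon under the CPM filter. It no longer had an unadjusted P under 0.05 with limma-voom or with replicate pair, in the distal genotype comparison and between HSCR segments, nor with the replicate block between HSCR segments. Scaling by non-mitochondrial counts moved the mean CPM of Nrg1 in WT distal colon to 5.27 and of Egfr in WT proximal colon to 29.6, and none of the other 30 means by more than 1 SD. Depth limits Nrg4, Erbb4 and the HSCR distal values of Nrg3, which rest on few reads.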
